A study of Mus musculus with 23 samples.

Results

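The macrophage genes described here are the 10 genes named Adgre1, Cd68, Csf1r, Lyz2, C1qa, C1qb, C1qc, Mrc1, Arg1 and Chil3, picked by symbol from a table of 56748 genes. RNA was sequenced from 23 melanoma tumors that had grown from B16-F1 cells placed under the skin of DBA/2J mice aged 6 to 8 weeks. B16-F1 is a melanoma line that arose in another inbred mouse strain. Drugs were given by the intraperitoneal (IP) route, dissolved in saline, or by the intratumoral (IT) route, dissolved in DMSO. PTX, pentoxifylline, is a methylxanthine derivative and was dosed at 60 mg/kg. NCTD, norcantharidin, is cantharidin without its methyl groups and was dosed at 3 mg/kg, and MIX tumors received both. CONTROL_IP received saline and CONTROL_IT received DMSO. CONTROL_IP, PTX_IP, NCTD_IP and MIX_IP held 2 tumors each, CONTROL_IT, NCTD_IT and MIX_IT held 4 each, and PTX_IT held 3. Each tumor carries a number from the labels, used below as its replicate number. By the study's text each mouse received cells on its right flank. The labels do not name the animal of each tumor, and the p-values measure the spread between these tumors.

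Macrophages are phagocytes that settle in tissues or arise there from blood monocytes, and they are often the most abundant immune cells of a solid tumor. Their survival depends on signaling through the receptor encoded by Csf1r. They are the main source of C1q, the recognition part of the classical complement pathway, which is built from the chains encoded by C1qa, C1qb and C1qc. Cytokines such as IL-4 and IL-13 drive a state called alternative activation, in which mouse macrophages express Mrc1, Arg1 and Chil3, while microbial products and interferon drive classical activation with Nos2 and Tnf. Several of the 10 genes are not limited to macrophages: Lyz2 is also expressed by neutrophils and monocytes, Cd68 by other phagocytes, Mrc1 by some endothelial cells, Arg1 by other myeloid cells and Chil3 by monocytes and neutrophils.

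RefSeq promoter windows, 250 bases before to 50 after the annotated start, were at hand for 6 of the 10 genes: C1qb, C1qc, Cd68, Mrc1, Lyz2 and Chil3. Those of C1qb, C1qc and Cd68 are shown because these genes moved together across the tumors, and that of Mrc1 because it followed them less closely. Capitals mark GAGGAA or its reverse complement TTCCTC, the letters of a binding motif of ETS factors, the family of the macrophage factor PU.1. The build is GRCm38.p6, which differs from that of the count table, and each window runs 5′ to 3′ on the strand of its gene.
C1qb (chr4:136886151-136886450, minus strand): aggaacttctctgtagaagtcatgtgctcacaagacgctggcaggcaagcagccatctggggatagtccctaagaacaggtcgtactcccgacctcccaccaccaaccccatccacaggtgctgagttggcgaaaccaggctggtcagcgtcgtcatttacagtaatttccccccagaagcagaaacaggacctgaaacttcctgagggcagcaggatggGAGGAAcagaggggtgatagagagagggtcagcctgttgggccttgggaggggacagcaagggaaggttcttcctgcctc
C1qc (chr4:136892865-136893164, minus strand): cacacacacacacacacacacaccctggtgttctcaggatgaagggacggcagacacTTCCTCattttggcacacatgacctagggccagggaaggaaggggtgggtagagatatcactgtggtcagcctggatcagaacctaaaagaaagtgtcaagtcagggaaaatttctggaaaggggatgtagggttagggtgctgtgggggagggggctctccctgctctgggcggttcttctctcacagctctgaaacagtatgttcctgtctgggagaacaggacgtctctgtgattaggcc
Cd68 (chr11:69666121-69666420, minus strand): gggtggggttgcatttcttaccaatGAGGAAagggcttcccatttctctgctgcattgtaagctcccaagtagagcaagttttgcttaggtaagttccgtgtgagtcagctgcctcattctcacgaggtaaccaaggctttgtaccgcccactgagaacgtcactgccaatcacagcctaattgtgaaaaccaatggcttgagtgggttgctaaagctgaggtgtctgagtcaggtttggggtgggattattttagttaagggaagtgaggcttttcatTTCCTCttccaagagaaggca
Mrc1 (chr2:14229164-14229463, plus strand): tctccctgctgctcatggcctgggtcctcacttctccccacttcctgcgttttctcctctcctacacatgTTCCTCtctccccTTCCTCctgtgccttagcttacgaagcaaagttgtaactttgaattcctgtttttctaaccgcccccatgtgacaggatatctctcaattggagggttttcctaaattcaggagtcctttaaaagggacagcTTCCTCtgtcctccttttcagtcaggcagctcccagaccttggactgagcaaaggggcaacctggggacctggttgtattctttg
The motif occurred on either strand in these 4 windows, with 1 match each in C1qb and C1qc, 2 in Cd68 and 3 in Mrc1, and not in those of Lyz2 and Chil3. It occurred in 28.3% of all 32851 promoter windows. The letters TTGCNNAA, a C/EBP motif, and TGANTCA, an AP-1 motif, were found on either strand in the Cd68 window and in no other of the 6, against 10.8% and 7.81% of all windows.

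The count totals ran from 2861578 to 6702374 per tumor, with a median of 4013068. Levels are given as CPM, the share of a gene in the library's total scaled by TMM, and 3 counts, taken as the lowest level these libraries can show, equal 0.449 to 1.04 CPM. All 10 genes passed the filter on low counts in every model. The defining genes of melanoma, summed over 7 markers, stood at 15320 to 37160 CPM, so that they were abundant in every library. Summed markers of B cells reached at most 2.4 CPM and those of mast cells 1.67, while those of muscle ranged from 5.05 to 245, of adipocytes from 32.9 to 520 and of red blood cells from 246 to 6944, and keratinocyte markers had a median of 0.876 and a highest value of 133. The sex-linked genes split the tumors: Xist stood at 9.20, 11.6 and 1.28 CPM in PTX_IT and at 5.56, 12.9, 5.19 and 13.6 in NCTD_IT, against 0, 0.219, 0 and 0.566 in CONTROL_IT and 0 in every MIX_IT tumor, while Ddx3y of the Y chromosome was at 0.3 CPM or less in PTX_IT and NCTD_IT and at 1.03 to 15.5 in CONTROL_IT and MIX_IT. The study's text describes its groups as matched for sex, and the source of this split was not tested. The levels of these genes and treatment with PTX or NCTD alone cannot be told apart in the IT tumors, or in contrasts between the routes that include them. Neither can route and vehicle, and the batch field of the labels names the route itself.

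In the GRCm39 coordinates of the deposited table all 10 are protein-coding genes. The C1q genes are neighbors on chromosome 4, minus strand, with C1qb at 136607440 to 136613498, C1qc at 136617115 to 136620376 and C1qa at 136623228 to 136626114. Lyz2 (10:117113236-117118226) and Arg1 (10:24791119-24803382) lie on the minus strand of chromosome 10, Cd68 (11:69555039-69556979) and Chil3 (3:106054870-106074880) on the minus strands of chromosomes 11 and 3, and Mrc1 (2:14234203-14336868), Adgre1 (17:57665691-57790527) and Csf1r (18:61233670-61265221) on plus strands. Few counts fell on genes that could share reads with them. Lyz1, a close copy of Lyz2, had 54 counts over all tumors, Chil4, a close copy of Chil3, had 9, and Hmgxb3, which overlaps Csf1r on the opposite strand, had 250.

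The 10 genes spanned a wide range of levels, and the tumors of a group differed widely. Lyz2, which encodes the lysozyme of phagocytes, was the most abundant by CPM, with a median of 242.4 over the 23 tumors and a range of 91.2 to 870. C1qc followed with a median of 160.6 CPM (21.4 to 572), then Cd68, a lysosomal membrane protein, with 72.1 (16.7 to 135), and C1qb with 71.7 (10.5 to 184). Mrc1, the mannose receptor, had a median of 36.5 CPM (11.5 to 122), Arg1, arginase of the urea cycle, 29.4 (3.88 to 87.9), C1qa 25.05 (3.34 to 113), Csf1r 24.8 (3.09 to 71.5), Adgre1, which encodes the surface antigen F4/80, 21.6 (4.11 to 78.9) and Chil3, a chitinase-like secreted protein, 6.45 (0 to 25.4). These levels compare tumors for each gene. They do not compare transcripts per length, since the libraries read the 3′ end of messenger RNA.

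**Figure D1:**
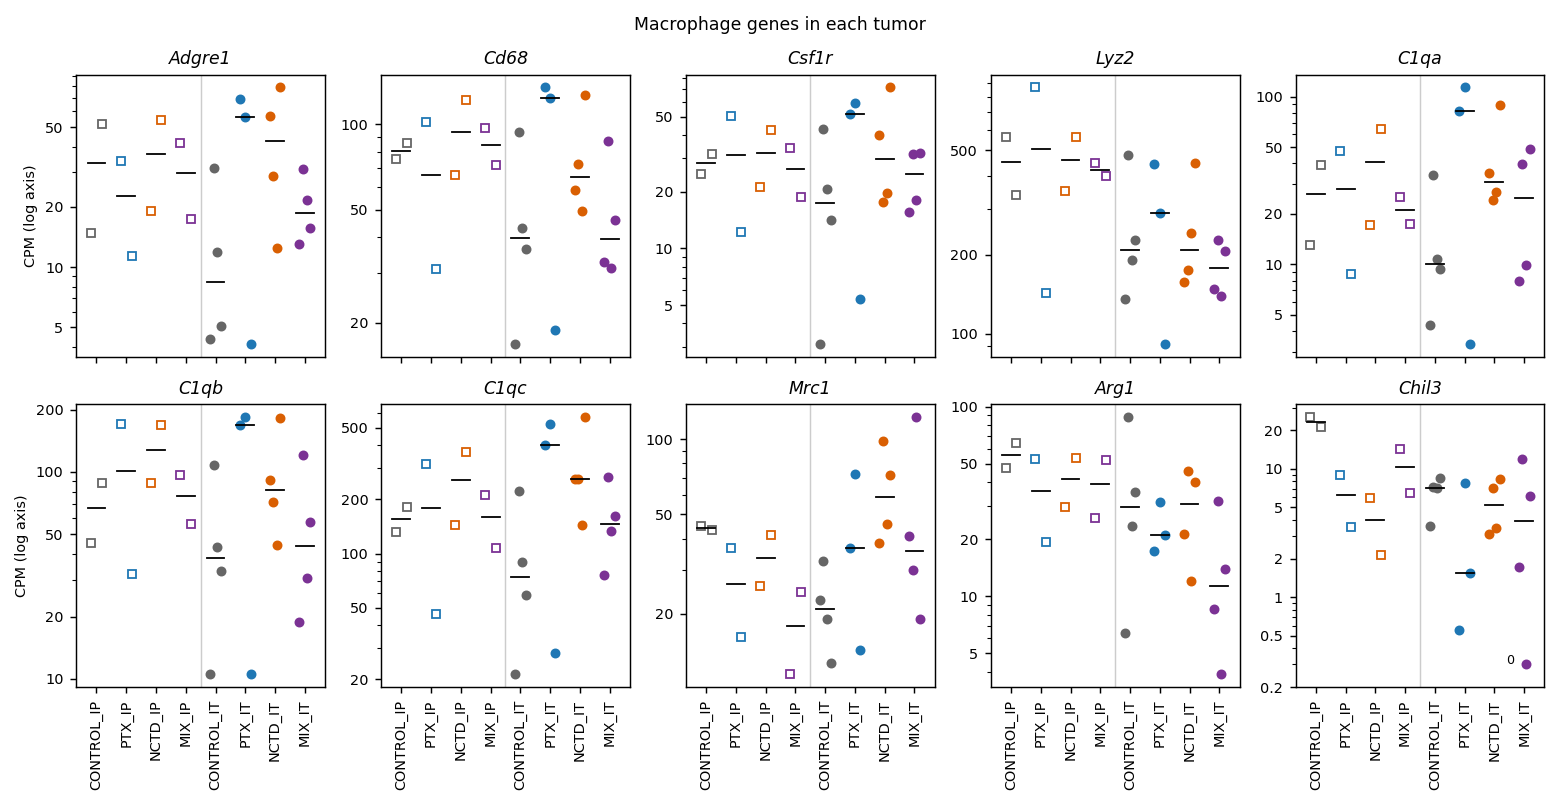
Level of each macrophage gene in CPM (log axis) in every tumor, by group: open squares are IP tumors, filled circles are IT tumors, colors mark the treatment and bars are group medians. The Chil3 level of 0 in MIX_IT replicate 23 is drawn at the foot of its panel. The tumors of a group spread over most of the range of the genes, as in PTX_IT, where C1qc lay between 28.0 and 526 CPM.

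Tumors that were high or low in 1 macrophage gene tended to be so in most. PTX_IT replicate 16 was among the 5 lowest of the 23 tumors in 9 of the 10 genes, and CONTROL_IT replicate 9, PTX_IP replicate 4 and MIX_IT replicate 21 in 8 each. NCTD_IT replicate 20 was among the 5 highest in 8 genes, and PTX_IP replicate 3, NCTD_IP replicate 6 and PTX_IT replicate 15 in 7 each. High and low tumors thus occurred within the same group, in PTX_IT and in PTX_IP. The SD between tumors of a group, on the log2 CPM scale and pooled over the 8 groups, had a median of 1.19 over the 10 genes and of 0.44 over the 13395 genes past the filter. It was widest for C1qa (1.46 on the log2 scale) and narrowest for Mrc1 (0.81) and Lyz2 (0.82). Differences between groups held a median of 25.9% of the variance of the macrophage genes and 34.5% of that of all genes. In bulk RNA, fewer macrophages and less RNA per macrophage cannot be told apart.

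Across the 23 tumors the identity genes and the C1q genes followed each other closely. In the 21 pairs among Adgre1, Cd68, Csf1r, Lyz2, C1qa, C1qb and C1qc, Pearson's r of log2 CPM lay between 0.57 and 0.96 with a median of 0.90, and between 0.68 and 0.98 after subtracting each group's mean. Cd68 and C1qb gave r = 0.96 and Spearman's rho = 0.95, with a permutation p of 1.0e-05 for each, the smallest that 100000 permutations can give, and 2.8e-05 after Benjamini-Hochberg adjustment over the 45 pairs of the 10 genes. Without the 2 tumors farthest from the Cd68 median r was 0.93. The lowest of the 21 was Adgre1 with Lyz2, at r = 0.57 (permutation p = 0.00462, adjusted 0.00832) and rho = 0.58 (p = 0.00469, adjusted 0.00879), and r fell to 0.41 without the 2 tumors farthest from the Adgre1 median. All pairs share the libraries and their scaling.

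The genes of alternative activation followed that block less closely, and Mrc1 kept apart from Arg1 and Chil3. Mrc1 correlated with the 7 identity and C1q genes at r between 0.11 and 0.55, Arg1 at 0.39 to 0.66 and Chil3 at 0.11 to 0.44. Arg1 and Chil3 correlated with each other at r = 0.68 (permutation p = 4.9e-04, adjusted 0.00116) and rho = 0.64 (p = 0.0014, adjusted 0.00302), and at r = 0.55 without the 2 tumors farthest from the Arg1 median. Mrc1 and Arg1 gave r = -0.05 (permutation p = 0.833, adjusted 0.833) and rho = 0.12 (p = 0.60, adjusted 0.614), with r = 0.27 without the 2 farthest tumors. In MIX_IT replicate 23 the 3 genes stood far apart: Mrc1 reached 122 CPM, its highest level in any tumor, while Arg1 was at 3.88, its lowest, and Chil3 had no count.

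**Figure D2:**
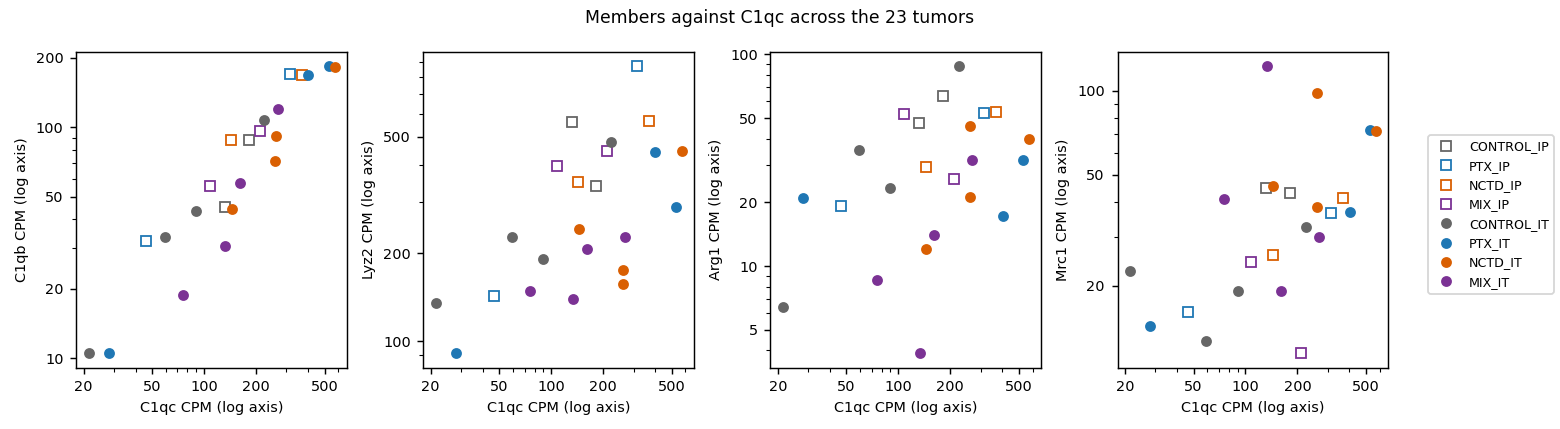
C1qb, Lyz2, Arg1 and Mrc1 against C1qc in CPM (log axes), a point for each of the 23 tumors, open squares for IP and filled circles for IT. C1qb lies on a narrow band with C1qc (r = 0.94), while Lyz2 (0.64), Mrc1 (0.55) and Arg1 (0.44) scatter around it.

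The genes whose pattern over the 23 tumors was most like the mean z-score of the 10 were Ctss (r = 0.98), which encodes the lysosomal protease cathepsin S, the chemokine gene Ccl8 (0.96), Mpeg1 (0.96), which encodes a pore-forming protein of phagocytes, Ly6a (0.96), which encodes the surface antigen Sca-1, and the chemokine gene Cxcl16 (0.96). Ctss and Mpeg1 are themselves macrophage genes. The gene most like Arg1 was Nos2 (r = 0.87, and 0.88 after subtracting group means), which encodes inducible nitric oxide synthase, the enzyme that uses the same amino acid and is taken as a mark of classical activation. Adam8 (0.86), Ccl6 (0.85), Tent5a (0.84) and Crlf2 (0.84) came next. For Chil3 the 5 nearest genes reached only 0.75 to 0.77, and the nearest was Isg20 (0.77), an exonuclease gene induced by interferon. These genes were picked for their likeness, so the values are descriptions without a test.

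Markers of other cell types varied between the same tumors. T and NK cell markers, 10 genes summed, ranged from 3.09 to 467 CPM, with their lowest value in CONTROL_IT replicate 9 and their highest in NCTD_IT replicate 20, the lowest and the highest tumors for Csf1r as well. Dendritic cell markers ranged from 6.79 to 45.8 CPM. Neutrophil markers were at 1096 CPM in NCTD_IT replicate 18, where S100a8 stood at 295 and S100a9 at 758, and between 3.96 and 50.1 in all other tumors. Fibroblast markers were at 8542 CPM in MIX_IT replicate 23 and between 106 and 1864 in the others, and this tumor had the lowest sum of melanoma markers, 15320 CPM. The part of these cells in the levels of the macrophage genes was not tested.

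**Figure D3:**
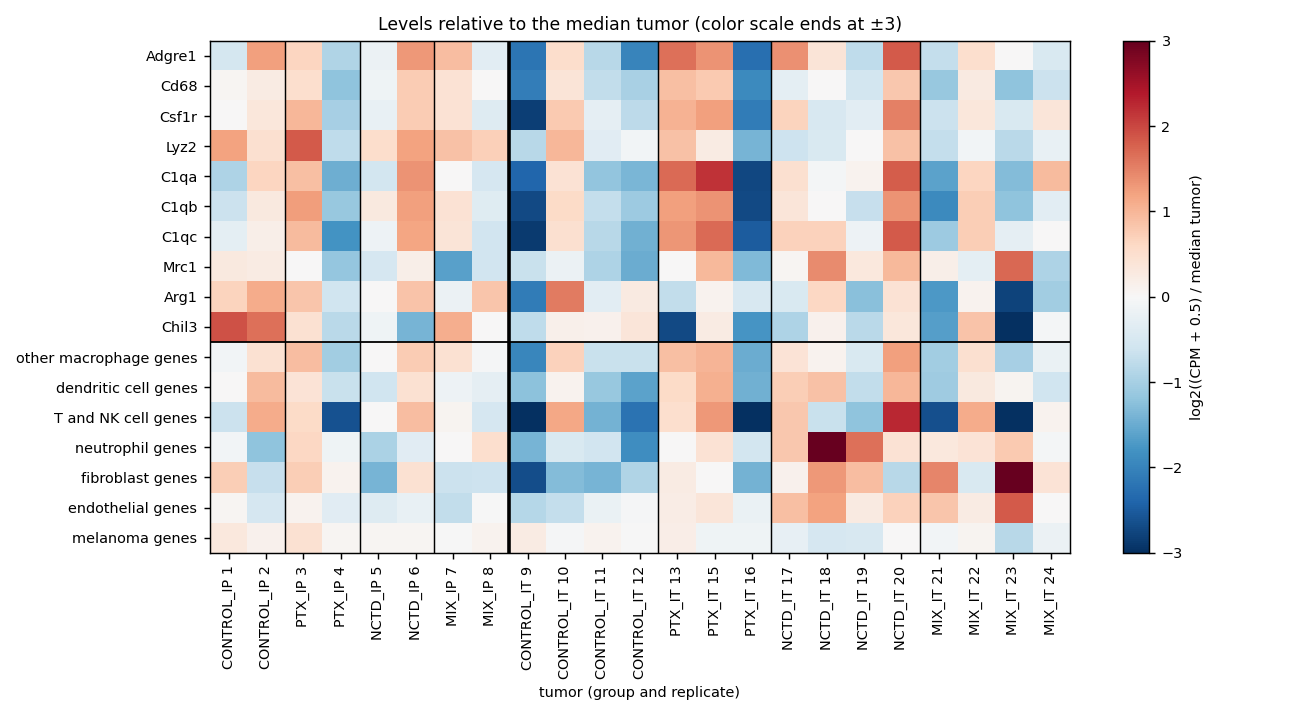
Levels of the 10 macrophage genes (upper rows) and summed levels of marker lists (lower rows) in each tumor, as log2 of CPM + 0.5 relative to the median tumor, with red above and blue below, where thin lines part the groups and the thick line parts IP from IT. The columns of PTX_IT replicate 16 and CONTROL_IT replicate 9 are blue in nearly all macrophage rows, and MIX_IT replicate 23 is red for Mrc1 and fibroblast genes and blue for Arg1 and Chil3.

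In the IT tumors NCTD and PTX were each compared with CONTROL_IT to learn how local treatment changed the tumors. Adgre1, C1qa and C1qc were higher in most NCTD_IT and PTX_IT tumors than in most CONTROL_IT tumors, by between 1.56 and 2.14 on the log2 scale, and Lyz2 differed by no more than 0.08. None of these differences passed the test across all genes. No macrophage gene had an adjusted p below 0.05 in either comparison by edgeR's quasi-likelihood test with Benjamini-Hochberg adjustment, where 1.37% of the 12480 genes tested did for NCTD_IT and 0% for PTX_IT. At an unadjusted p below 0.05 there were 3 of 10 for NCTD_IT, against 21.6% of all genes, and 3 of 10 for PTX_IT, against 6.35%. DESeq2 on the groups compared called Mrc1 for NCTD_IT (adjusted p = 3.97e-04), where it called 10.6% of the genes it tested, and no macrophage gene for PTX_IT, where it called 15 of 15487 genes. With no filter on low counts the same edgeR test called 6 macrophage genes for NCTD_IT, against 4.43% of all genes, and 5 for PTX_IT, against 0.826%, and with Xist (log2 CPM) as a covariate it called 0 in each. Xist separates CONTROL_IT from both groups, so this fit cannot part it from treatment. That covariate turned the direction of Adgre1 (-2.49 in both), C1qc (-3.41 and -3.31) and, in NCTD_IT, Mrc1 (-1.04 on the log2 scale). With it the median over the 10 genes was -2.93 for NCTD_IT, with 5 genes at an unadjusted p below 0.05 against 703 of 12480 genes, and -2.67 for PTX_IT, with 4 against 450 of 12480. The comparisons share the CONTROL_IT tumors.

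Adgre1 in CONTROL_IT was at 4.38, 31.1, 11.8 and 5.09 CPM, in NCTD_IT at 56.7, 28.5, 12.4 and 78.9, in PTX_IT at 69.4, 56.1 and 4.11 and in MIX_IT at 13.1, 30.9, 21.6 and 15.7. CONTROL_IT replicate 10 lay above some tumors of each treated group, and PTX_IT replicate 16 lay below every CONTROL_IT tumor. The log2 fold change was 1.73 ± 0.72 (SE, adjusted p = 0.176) for NCTD_IT and 1.69 ± 0.76 (SE, adjusted p = 0.785) for PTX_IT.

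C1qc stood at 21.4, 223, 89.95 and 59.1 CPM in CONTROL_IT, at 261, 259, 144 and 572 in NCTD_IT, at 402, 526 and 28 in PTX_IT and at 75.6, 268, 133 and 161 in MIX_IT. All NCTD_IT tumors were above 3 of the 4 CONTROL_IT tumors, and the groups overlapped through CONTROL_IT replicate 10. Its log2 fold change was 1.64 ± 0.72 (SE, adjusted p = 0.201) for NCTD_IT and 1.68 ± 0.76 (SE, adjusted p = 0.785) for PTX_IT. C1qa was at 4.38, 34.2, 10.8 and 9.34 CPM in CONTROL_IT and at 82.5, 113 and 3.34 in PTX_IT, so that PTX_IT held both the highest and the lowest C1qa level of all 23 tumors. The difference was 2.14 ± 0.87 (SE, adjusted p = 0.785) on the log2 scale. C1qa was at 35.3, 24.1, 26.97 and 89.1 CPM in NCTD_IT and at 7.92, 39.6, 9.95 and 48.97 in MIX_IT.

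The other genes of this block showed the same low and high tumors. C1qb was at 10.6, 108, 43.6 and 33.4 CPM in CONTROL_IT, 169, 184 and 10.5 in PTX_IT, 91.8, 71.7, 44.2 and 182 in NCTD_IT and 18.8, 120.2, 30.6 and 57.3 in MIX_IT. Cd68 was at 16.7, 93.8, 43.1 and 36.2 CPM in CONTROL_IT, 135, 124 and 18.8 in PTX_IT, 58.6, 72.2, 49.4 and 126 in NCTD_IT and 32.8, 87.4, 31.1 and 46.1 in MIX_IT. Csf1r, the receptor on which macrophages depend, was at 3.09, 43.2, 20.7 and 14.2 CPM in CONTROL_IT, 51.6, 58.97 and 5.39 in PTX_IT, 39.8, 17.6, 19.7 and 71.5 in NCTD_IT and 15.6, 31.7, 17.96 and 32.1 in MIX_IT. In all 3 genes CONTROL_IT replicate 9 and PTX_IT replicate 16 were the lowest IT tumors and every treated group overlapped CONTROL_IT.

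Among the 10 genes only Mrc1 was higher in NCTD_IT than in CONTROL_IT without overlap, which is near the share of all genes given next. Its levels were 22.7, 32.4, 19.1 and 12.7 CPM in CONTROL_IT and 38.2, 97.8, 45.6 and 71.7 in NCTD_IT, without overlap, where 7.59% of all genes past the filter were higher without overlap. In PTX_IT Mrc1 was at 36.8, 72.5 and 14.4 CPM and in MIX_IT at 41.1, 29.97, 122 and 19.1, and both overlapped CONTROL_IT. The log2 fold change was 1.53 ± 0.55 (SE, adjusted p = 0.123) for NCTD_IT and 1.28 ± 0.54 (SE, adjusted p = 0.331) for MIX_IT. With only the 2 groups in the model the adjusted p for NCTD_IT was 0.0243, where 8.40% of all genes passed. Without MIX_IT replicate 23 the Mrc1 difference of MIX_IT was 0.45 on the log2 scale. Fibroblast markers were higher as well, at 106, 272, 255 and 361 CPM in CONTROL_IT, 733, 1656, 1265 and 377 in NCTD_IT and 1864, 485, 8542 and 887 in MIX_IT, as were endothelial markers, at 32.7, 35.7, 51.6 and 57.4, 111, 137, 71.9 and 95.5 and 105, 70.2, 213 and 59.3 CPM. Their part in the Mrc1 levels was not tested.

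The remaining members differed less. In NCTD_IT the log2 fold changes of Cd68, Csf1r, C1qa and C1qb lay between 0.68 and 1.56 and those of Lyz2, Arg1 and Chil3 between -0.37 and -0.02. In PTX_IT those of Cd68, Csf1r, C1qb, Mrc1 and Lyz2 lay between 0.08 and 1.29, and Arg1 and Chil3 were at -0.73 and -1.04. The median over the 10 genes was 0.92 in both, while the median over all genes tested was 0.03 for NCTD_IT and 0.02 for PTX_IT. Single tumors carried much of this. Without CONTROL_IT replicate 10 the median was 1.65 for NCTD_IT and 1.56 for PTX_IT, and 7 and 6 genes respectively reached an unadjusted p below 0.05, against 2806 and 1097 of all 12402 genes. Leaving out CONTROL_IT replicate 9, 11 or 12 or NCTD_IT replicate 20 left 1 such gene for NCTD_IT, against 1952 of 12399 to 2498 of 12397 genes. Leaving out CONTROL_IT replicate 9, 11 or 12 or PTX_IT replicate 13 left 0 for PTX_IT, against 446 of 12399 to 559 of 12443 genes. PTX_IT replicate 15 left 1, against 246 of 12943 genes, and PTX_IT replicate 16 left 7, against 1872 of 13039. The median was 0.43 for NCTD_IT without NCTD_IT replicate 20 and 0.58 without CONTROL_IT replicate 9, and 0.58 for PTX_IT without PTX_IT replicate 15. No macrophage gene reached an adjusted p below 0.05 in any of these fits.

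In MIX_IT the macrophage genes differed from the control in both directions, as did the 2 with the smallest p. In this group 7 of the 10 genes were higher than in CONTROL_IT and 3 lower, with a median log2 fold change of 0.23 against 0.01 for all genes. By edgeR's quasi-likelihood test 0 of 10 had an adjusted p below 0.05 (0% of all genes) and DESeq2 called 0, while 2 of 10 had an unadjusted p below 0.05, against 13% of all genes. These were Mrc1, given above, and Arg1. Arg1 was at 6.44, 87.9, 23.4 and 35.4 CPM in CONTROL_IT and at 8.56, 31.7, 3.88 and 13.99 in MIX_IT, so that the groups overlapped and the highest level of all tumors was in CONTROL_IT replicate 10. Its log2 fold change was -1.39 ± 0.65 (SE, adjusted p = 0.378) and moved to -0.57 without that tumor. In NCTD_IT Arg1 was at 21.2, 45.8, 12.1 and 40 CPM and in PTX_IT at 17.3, 31.6 and 21.1. The median of the 10 genes in MIX_IT was -0.12 without CONTROL_IT replicate 9, -0.14 without MIX_IT replicate 22 and 0.95 without CONTROL_IT replicate 10, and 0 of the 10 had an unadjusted p below 0.05 without MIX_IT replicate 23 (1025 of 12311 genes) or CONTROL_IT replicate 12 (1151 of 12439 genes). With the Xist covariate it was 0.74, with 3 genes at that threshold against 2183 of 12480.

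Direct comparisons between the treated IT groups gave no call for the macrophage genes. MIX_IT was lower than NCTD_IT in all 10 genes, with a median log2 fold change of -0.67, and lower than PTX_IT in 8 of 10, with a median of -0.78. By edgeR no member had an unadjusted p below 0.05 in either, against 6.02% and 3.75% of all genes, or an adjusted p below 0.05, against 0.00801% and 0%. DESeq2 gave no adjusted p below 0.05 for a member. It gave 2 members at an unadjusted p below 0.05 for MIX_IT against NCTD_IT and 0 for MIX_IT against PTX_IT. For MIX_IT against NCTD_IT 745 genes had an unadjusted p below 0.05, counted over every gene with a p. Only the 18100 genes that DESeq2 kept had an adjusted p. The smallest p belonged to Adgre1 for MIX_IT against NCTD_IT (-1.12 ± 0.70 SE, adjusted p = 0.818) and to C1qa for MIX_IT against PTX_IT (-1.30 ± 0.84 SE, adjusted p = 0.982). Without PTX_IT replicate 16 the median against PTX_IT was -1.28 and 6 genes had an unadjusted p below 0.05, against 841 of 13039 genes, while it was -0.51 without PTX_IT replicate 15 and -1.35 without MIX_IT replicate 22. Against NCTD_IT the median was -0.25 without NCTD_IT replicate 20 and -1.03 without MIX_IT replicate 22. The Xist covariate turned both medians, to 3.47 against NCTD_IT, with 6 genes at an unadjusted p below 0.05 (1069 of 12480 genes), and to 3.44 against PTX_IT, with 7 (1208 of 12480). Xist separates MIX_IT from both of these groups, so these fits cannot part it from treatment. NCTD_IT and PTX_IT differed by a median of -0.04 on the log2 scale over the 10 genes, with 0 below an unadjusted p of 0.05 (3.87% of all genes) and 0 below an adjusted p of 0.05 (0%, and 0 by DESeq2). That median was -0.51 without NCTD_IT replicate 20, -0.54 without PTX_IT replicate 16, 0.33 without PTX_IT replicate 15 and 0.21 without PTX_IT replicate 13. Mrc1 had the smallest p there, at 0.63 ± 0.58 (SE, adjusted p = 0.999).

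**Figure D4:**
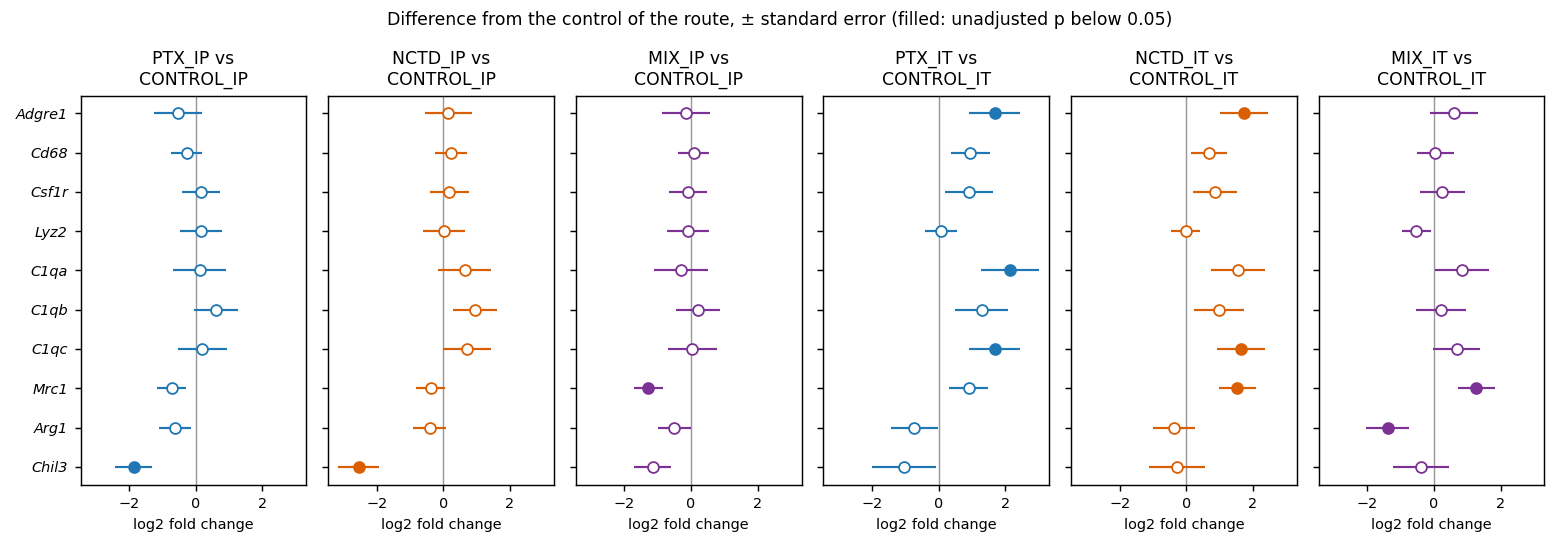
Log2 fold change of each macrophage gene against the control of its route, with bars of ± 1 standard error, where filled points have an unadjusted p below 0.05, and no point has an adjusted p below 0.05. The C1q genes and Adgre1 lie to the right in PTX_IT and NCTD_IT, and Chil3 lies to the left in the IP groups.

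In the IP tumors only Chil3 and Mrc1 were lower in the treated groups without overlap, and the C1q and identity genes overlapped with the controls. Chil3 was at 25.4 and 21.2 CPM in CONTROL_IP, the highest levels of all 23 tumors, at 8.98 and 3.49 in PTX_IP, at 5.88 and 2.15 in NCTD_IP and at 14.3 and 6.45 in MIX_IP. Every treated IP tumor was below both controls. With groups of 2 such separation is frequent: 16% of all genes were lower without overlap in PTX_IP, 17.8% in NCTD_IP and 19.3% in MIX_IP. Chil3 and Mrc1 among 10 genes are near these shares, and the comparisons share the CONTROL_IP tumors. The log2 fold change of Chil3 was -2.55 ± 0.61 (SE, adjusted p = 0.999) for NCTD_IP and -1.87 ± 0.56 (SE, adjusted p = 0.906) for PTX_IP. DESeq2 on these groups gave an adjusted p of 0.0139 for NCTD_IP, where it called 0.0787% of the genes it tested, and called no macrophage gene for PTX_IP or MIX_IP. In the IT tumors Chil3 was low in the controls too, at 3.60, 7.23, 7.05 and 8.49 CPM in CONTROL_IT, 0.557, 7.73 and 1.54 in PTX_IT, 3.13, 7.05, 3.46 and 8.27 in NCTD_IT and 1.71, 12.02, 0 and 6.16 in MIX_IT. In 2 tumors it had fewer than 3 counts.

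Mrc1 was also below both controls in every treated IP tumor, at 44.9 and 43.1 CPM in CONTROL_IP, 36.5 and 16.2 in PTX_IP, 25.8 and 41.3 in NCTD_IP and 11.5 and 24.4 in MIX_IP. The log2 fold change in MIX_IP was -1.29 ± 0.44 (SE, adjusted p = 0.999). The median over the 10 genes was 0.16 in NCTD_IP, -0.08 in PTX_IP and -0.12 in MIX_IP, and single tumors turned each sign. It was 0.59 for NCTD_IP without NCTD_IP replicate 5 and -0.49 without replicate 6, and for MIX_IP it was -0.55 without MIX_IP replicate 7 and 0.15 without replicate 8. Without CONTROL_IP replicate 1 it was -0.42 for PTX_IP and -0.47 for MIX_IP, and without CONTROL_IP replicate 2 it was 0.09 and 0.14. By edgeR 0 of 10 had an adjusted p below 0.05 in each comparison (0% of all genes in each), and 1 of 10 had an unadjusted p below 0.05 in each, against 3.59%, 5.30% and 2.94% of all genes. The identity and C1q genes of the IP tumors overlapped between every treated group and the controls, as for Adgre1, at 14.8 and 51.5 CPM in CONTROL_IP, 33.98 and 11.4 in PTX_IP, 19.04 and 54.2 in NCTD_IP and 41.8 and 17.4 in MIX_IP. Csf1r was at 24.9 and 31.7 CPM in CONTROL_IP, 50.3 and 12.2 in PTX_IP, 21.3 and 42.5 in NCTD_IP and 33.9 and 18.8 in MIX_IP. In Adgre1 and Csf1r the 2 tumors of each treated IP group stood apart, and in Adgre1 those of CONTROL_IP did too. Arg1 was at 47.4 and 64 CPM in CONTROL_IP, 52.7 and 19.2 in PTX_IP, 29.4 and 53.7 in NCTD_IP and 25.8 and 52.5 in MIX_IP. PTX_IP rested on tumors that differed between themselves: C1qc was at 313 and 46.3 CPM, and without PTX_IP replicate 3 the median was -1.55 with 7 genes at an unadjusted p below 0.05 (1702 of 12964 genes), while without replicate 4 it was 0.57 with 3 such genes (1035 of 13026).

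Between the routes, averaged over the 4 treatments, Lyz2 was lower in the IT tumors. It was at 561 and 339 CPM in CONTROL_IP, 869.7 and 143 in PTX_IP, 352 and 564 in NCTD_IP and 447 and 399 in MIX_IP, against 136, 481, 191 and 227 in CONTROL_IT, 444, 289 and 91.2 in PTX_IT, 157, 176, 242 and 448 in NCTD_IT and 149, 228, 139 and 207 in MIX_IT. All IP tumors but PTX_IP replicate 4 were at 339 CPM or more, and 3 of the 15 IT tumors were. The difference was -0.94 ± 0.30 (SE, adjusted p = 0.145) on the log2 scale, so that it did not pass the test, and it was -0.49 without PTX_IP replicate 3. It was the 1 gene of 10 at an unadjusted p below 0.05, against 14.4% of all genes, and 0 of 10 had an adjusted p below 0.05 by edgeR or DESeq2, against 0.739% of all genes. The median over the 10 genes was -0.21, and 0.12 without PTX_IP replicate 3. Ddx3y was lower in the IT tumors as well (-2.89 ± 0.51 SE, adjusted p = 0.0124 by edgeR). With the Xist covariate the median was -1.12, with 4 genes at an unadjusted p below 0.05, against 1499 of 13395 genes. Sex-linked levels differed between the groups compared, so that fit cannot part them from route, and no conclusion is drawn from it.

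Whether a drug's effect differed between the routes was tested as the IT difference minus the IP difference in a model of all 23 tumors. No member had an adjusted p below 0.05 for NCTD, PTX or MIX (0% of all genes in each, and 0 by DESeq2), and 1, 0 and 1 had an unadjusted p below 0.05, against 10.8%, 5.23% and 7.44% of all genes. Mrc1 had the smallest p in each: the difference of differences was 1.92 ± 0.89 (SE, adjusted p = 0.444) for NCTD, 1.64 ± 0.91 (SE, adjusted p = 0.892) for PTX and 2.57 ± 0.91 (SE, adjusted p = 0.601) for MIX, on the log2 scale. The median over the 10 genes was 0.81 for NCTD, 1.04 for PTX and 0.51 for MIX. With the Xist covariate these medians turned to -1.69, -1.47 and -0.34. Xist itself gave 12.6 ± 2.68 (SE) for NCTD and 12.3 ± 2.59 (SE) for PTX. Such fits cannot part it from treatment, and no conclusion is drawn from them.

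Over the 8 groups no order of levels was firm. CONTROL_IT had the lowest mean of all groups in Adgre1, Cd68, Csf1r, C1qa, C1qb and C1qc, and either PTX_IT, NCTD_IT or NCTD_IP had the highest. Mean C1qc, for instance, went from 98.4 ± 87.8 CPM (SD, n = 4) in CONTROL_IT over 156 ± 34.55 (n = 2) in CONTROL_IP, 159 ± 80.5 (n = 4) in MIX_IT, 159 ± 73.3 (n = 2) in MIX_IP, 180 ± 188.5 (n = 2) in PTX_IP, 256 ± 158 (n = 2) in NCTD_IP and 309 ± 183 (n = 4) in NCTD_IT to 319 ± 259 (n = 3) in PTX_IT. In 9 of the 10 genes all 7 pairs of neighbors in the order overlapped and differed by less than the larger SD. The exception was Chil3, where CONTROL_IP at 23.3 ± 3.01 CPM (SD, n = 2) lay above MIX_IP, next in order at 10.4 ± 5.585 (n = 2).

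Ratios within a tumor compare the macrophage genes with each other whatever the total. They were chosen after the levels had been seen, as counts of a gene over counts of C1qc with 0.5 added to each. Arg1 stood at 0.305, 0.394, 0.262 and 0.599 counts per count of C1qc in CONTROL_IT, at 0.0816, 0.177, 0.0848 and 0.0702 in NCTD_IT, at 0.115, 0.119, 0.0301 and 0.0876 in MIX_IT and at 0.0434, 0.0603 and 0.753 in PTX_IT. NCTD_IT and MIX_IT lay below all controls, and PTX_IT replicate 16 lay above them. The mean difference on the log2 scale was -1.94 ± 0.397 (SE) for NCTD_IT and -2.26 ± 0.533 (SE) for MIX_IT, each with a two-sided exact permutation p of 0.0286, the smallest that groups of 4 allow, and 0.129 after adjustment over 27 ratios. For MIX_IT the separation and this p were the same with Csf1r or Cd68 in place of C1qc, whereas for NCTD_IT the groups then overlapped (exact permutation p = 0.143 and 0.114). With these divisors 0.717% and 0.426% of all genes were lower without overlap in MIX_IT.

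Lyz2 per C1qc count was 6.32, 2.15, 2.12 and 3.83 in CONTROL_IT, 0.603, 0.678, 1.68 and 0.784 in NCTD_IT, 1.97, 0.851, 1.05 and 1.29 in MIX_IT and 1.11, 0.549 and 3.25 in PTX_IT. Again NCTD_IT and MIX_IT lay below every control, with differences of -1.92 ± 0.503 (SE) and -1.41 ± 0.457 (SE) on the log2 scale (exact permutation p = 0.0286 each, adjusted 0.129). With Csf1r as the divisor the groups overlapped, with exact permutation p of 0.143 and 0.0571. C1qb per C1qc count, a ratio of neighboring genes whose products join in the same protein, was 0.497, 0.483, 0.485 and 0.566 in CONTROL_IT, 0.352, 0.277, 0.307 and 0.319 in NCTD_IT, 0.250, 0.449, 0.231 and 0.357 in MIX_IT and 0.420, 0.349 and 0.379 in PTX_IT. All 3 treated groups lay below the controls, with differences of -0.70 ± 0.0894 (SE), -0.71 ± 0.231 (SE) and -0.41 ± 0.0939 (SE) on the log2 scale (exact permutation p = 0.0286, 0.0286 and 0.0571, the smallest these group sizes allow, adjusted 0.129, 0.129 and 0.483). With Cd68 in place of C1qc the direction of C1qb turned in all 3 groups, at 0.39, 0.13 and 0.16 on the log2 scale (exact permutation p = 0.257, 0.686 and 0.743). In the IP tumors C1qb per C1qc count was 0.345 and 0.487 in CONTROL_IP, 0.544 and 0.694 in PTX_IP, 0.613 and 0.458 in NCTD_IP and 0.458 and 0.520 in MIX_IP. No treated IP group lay below the controls, and PTX_IP lay above both, where 2.36% of all genes were higher without overlap. Arg1 per C1qc count was lower without overlap in NCTD_IP (0.1465 and 0.2055 against 0.3541 and 0.3593), where 21.9% of all genes were. It overlapped in PTX_IP and MIX_IP, and Lyz2 overlapped in every treated IP group. Of all genes past the filter 11.3% had a ratio to C1qc that was lower without overlap in NCTD_IT, 1.43% in MIX_IT and 0.664% in PTX_IT. Cd68 and Chil3 also lay lower in NCTD_IT, which makes 5 of 9 members there, 3 of 9 in MIX_IT and 1 of 9 in PTX_IT. Ratios to C1qc that were higher without overlap were rare, at 0.0448%, 0.0149% and 0.0373% of all genes. C1qc itself stood 1.64, 0.68 and 1.68 above CONTROL_IT on the log2 scale, so these tallies hold for this divisor only. Over Csf1r, 1.43% of all genes were lower without overlap in NCTD_IT, where Arg1 and Lyz2 overlapped. Whether these genes fell relative to macrophages was not tested. All these ratios share the C1qc counts of a tumor.

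**Figure D5:**
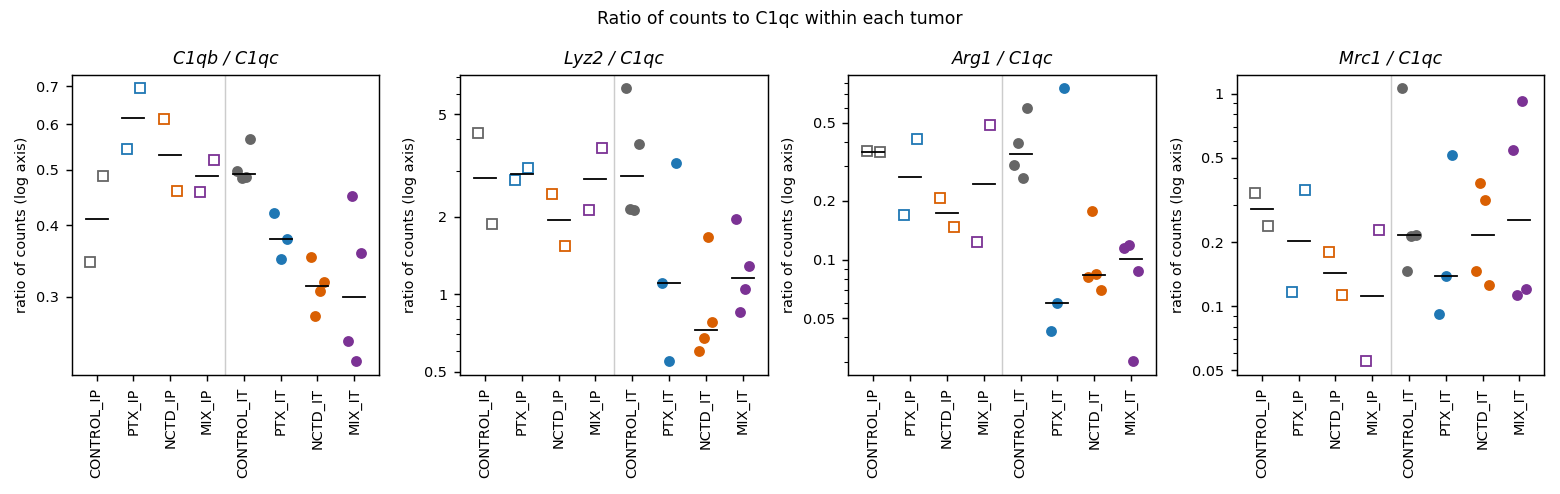
Counts of C1qb, Lyz2, Arg1 and Mrc1 per count of C1qc in each tumor (log axes), open squares for IP and filled circles for IT, with bars at the group medians of the log values. NCTD_IT and MIX_IT lie below all CONTROL_IT tumors for C1qb, Lyz2 and Arg1, and the groups overlap for Mrc1.

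Other genes of macrophages, from lists written for this report, were counted the same way. Of 25 further macrophage genes 24 passed the filter in the IT tumors. In NCTD_IT 22 of these were higher than in CONTROL_IT, 5 at an unadjusted p below 0.05, against 21.6% of all genes, and none at an adjusted p below 0.05, with a median log2 fold change of 0.85. The smallest p belonged to Laptm5, a lysosomal membrane protein of blood cells (1.74 ± 0.61 SE, adjusted p = 0.119), and Cd14, the co-receptor for lipopolysaccharide (2.67 ± 1.00 SE, adjusted p = 0.14). Cd14 rested on 1 tumor: without NCTD_IT replicate 18 its log2 fold change was -0.11. In PTX_IT 21 of the 24 were higher with a median of 0.75, 3 at an unadjusted p below 0.05 (6.35% of all genes), and in MIX_IT 14 were higher with a median of 0.24, 1 higher and 1 lower at that threshold (13% of all genes). The gene lower in MIX_IT was the chemokine gene Ccl6 (-1.03 ± 0.33 SE, adjusted p = 0.206).

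Of the list of alternative activation, which holds 19 genes apart from the members, 10 passed the filter. In NCTD_IT 9 were higher, 4 at an unadjusted p below 0.05 (21.6% of all genes), led by Clec7a, the beta-glucan receptor dectin-1 (2.36 ± 0.62 SE, adjusted p = 0.0579), Tgfbi, a secreted matrix protein (1.37 ± 0.55 SE, adjusted p = 0.16), and Il4ra, the receptor chain for IL-4 and IL-13 (1.27 ± 0.53 SE, adjusted p = 0.177). Genes of classical activation were higher too, 11 of 11 with 4 at that threshold, led by Il1b (3.43 ± 1.02 SE, adjusted p = 0.0745), the co-stimulator Cd80 (2.66 ± 1.00 SE, adjusted p = 0.14) and Tnf (1.96 ± 0.83 SE, adjusted p = 0.181). The medians of the lists were 1.32 and 1.29 on the log2 scale. Neither list had a gene at an adjusted p below 0.05 by edgeR in the fit of all IT tumors. Over edgeR fits without 1 tumor the adjusted p of Clec7a ran from 0.0444 to 0.163. Il1b was at 0.78 on the log2 scale without NCTD_IT replicate 18, the tumor with the high neutrophil markers. In PTX_IT 2 of 10 genes of the alternative list and 0 of 11 of the classical list had an unadjusted p below 0.05, against 6.35% of all genes, and in MIX_IT 0 of each, against 13%. Clec7a was one of those in PTX_IT (1.87 ± 0.64 SE, adjusted p = 0.785). Set against CONTROL_IP, no gene of either list had an unadjusted p below 0.05 in PTX_IP, NCTD_IP or MIX_IP, and DESeq2's count was not taken for these lists.

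Genes of recruitment and growth and of the complement cascade were counted in NCTD_IT too. Of 9 recruitment genes tested 3 had an unadjusted p below 0.05, against 21.6% of all genes, all higher: the chemokine genes Ccl3 (2.75 ± 0.72 SE, adjusted p = 0.0579) and Ccl4 (2.43 ± 0.83 SE, adjusted p = 0.111) and Csf1 (1.39 ± 0.44 SE, adjusted p = 0.0904), the ligand of the Csf1r product. The rest were Csf2rb (0.85), Ccl7 (0.44), Ccl2 (0.16), Csf2ra (-0.04), Ccl12 (-0.27) and Vegfa (-0.28), on the log2 scale. Over edgeR fits without 1 tumor the adjusted p of Ccl3 ran from 0.0442 to 0.185. Of 11 complement genes tested 4 were higher at that threshold, led by C1s1, which encodes the C1s protease of the C1 complex (1.88 ± 0.54 SE, adjusted p = 0.068), C3 (1.88 ± 0.70 SE, adjusted p = 0.138) and C5ar1, the receptor for C5a (1.49 ± 0.57 SE, adjusted p = 0.147). Over edgeR fits without 1 tumor the adjusted p of C1s1 ran from 0.0485 to 0.182. In PTX_IT Csf2rb, the common beta chain of several cytokine receptors (1.19 ± 0.49 SE, adjusted p = 0.785), C3 (1.75 ± 0.74 SE, adjusted p = 0.785) and C1s1 (1.21 ± 0.57 SE, adjusted p = 0.786) were at that threshold, where 6.35% of all genes were. The Xist covariate turned the direction of each. In MIX_IT C1s1 was higher as well (1.65 ± 0.53 SE, adjusted p = 0.206) and no recruitment gene had an unadjusted p below 0.05. Neutrophil genes S100a8 (5.60 ± 1.16 SE, adjusted p = 0.0363) and S100a9 (6.63 ± 1.40 SE, adjusted p = 0.0363) rose in NCTD_IT. They were the 2 of 4 neutrophil genes tested, of 10 listed, with an adjusted p below 0.05. Of the others, Csf3r was higher (2.18 ± 0.79 SE, adjusted p = 0.13) and Mmp8 lower (-1.09 ± 0.83 SE, adjusted p = 0.467). Without NCTD_IT replicate 18 S100a8 and S100a9 were at 2.53 and 2.76 on the log2 scale, at adjusted p of 0.105 and 0.126 by the same test. Neither passed without CONTROL_IT replicate 9, 10, 11 or 12 or NCTD_IT replicate 17, at adjusted p of 0.0508 to 0.142 for S100a8 and 0.0508 to 0.145 for S100a9, and DESeq2 gave no adjusted p for either.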

How the data were processed

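Raw read counts per gene were deposited by the authors as a single table of 56748 genes and 23 tumors. The submitters' processing notes name FastQC, Trimmomatic, STAR 2.7.11b and the GRCm39 build, and the libraries were made with a 3′ mRNA kit. The handling of strand and of multimapping reads is not given in the sources used here. The 10 genes and the gene lists were chosen with earlier results of these data known. Counts were normalized by TMM and tested with edgeR 4.0.16 (quasi-likelihood F test, low counts removed by filterByExpr at 10 per library and 15 in total) in R 4.3.3 with limma 3.58.1. Each route was fitted as 1 model of its 4 groups, and contrasts between routes used 1 model of the 23 tumors. P-values were adjusted by the Benjamini-Hochberg method over all genes tested. Fold changes are printed for members with an unadjusted p below 0.05, or the smallest p where there was none, and for at most 3 such genes of each other list, all of them in NCTD_IT and MIX_IT and some in PTX_IT; values of other genes are given where a statement rests on them and were chosen after they were seen. Other genes that this rule would name are given as counts, and 1 is not reported here. The 5 genes most like the members were ranked by Pearson's r of log2 CPM (prior count 2). Correlations were tested with 100000 permutations, two-sided, and ratios with exact permutation tests in Python 3.11.15 (scipy 1.17.1). Ratios were chosen after the data were seen. Figures were drawn with matplotlib 3.10.9. Tumors of a group differed beyond sampling noise, by a chi-square of 8.19 to 68.2 per degree of freedom, so each counts as 1 sample. Floors of 3 counts cover counting error only, since reads without molecular identifiers are not independent molecules. Alternatives were DESeq2 1.42.0, its size factors, no filter on low counts, other sets of samples, an Xist covariate and leaving out each tumor. The models were tested on simulated data.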

Additional observations from a re-analysis of the deposited data

How the results depend on the processing

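No paired analysis was possible because each tumor carries a replicate number of its own, so that no 2 groups share one. No macrophage gene had an adjusted p below 0.05 with DESeq2's size factors, with all tumors in the model, with an Xist covariate or without any 1 tumor, for the comparisons in which these were run. With only the 2 groups compared in the model 1 gene passed for NCTD_IT (Mrc1, with 946 of 11263 genes tested), and with DESeq2 1 for NCTD_IT (Mrc1, with 1380 of 13016) and 1 for NCTD_IP (Chil3, with 11 of 13981). With no filter on low counts the number that passed was 6 for NCTD_IT, 5 for PTX_IT and 2 for MIX_IT (1190, 222 and 364 of 26878 genes), 1 each for NCTD_IP, PTX_IP and MIX_IP (71, 71 and 51 of 23653), 2 for MIX_IT against NCTD_IT and 3 for MIX_IT against PTX_IT (190 and 109 of 26878), 2 for IT against IP (453 of 29064), and 2, 4 and 1 for the difference between routes of NCTD, PTX and MIX (283, 110 and 139 of 29064). The cause was not tested.

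With the Xist covariate, which separates CONTROL_IT from PTX_IT and NCTD_IT, the log2 fold change reversed for Adgre1 (-2.49), C1qc (-3.41), Mrc1 (-1.04), Laptm5 (-2.31), Clec7a (-2.07), Tgfbi (-1.16), Il4ra (-1.63), Cd80 (-1.98), Tnf (-2.10), Ccl3 (-0.39), Csf1 (-0.57), Ccl4 (-2.86), C1s1 (-1.02), C3 (-3.68) and C5ar1 (-0.86) in NCTD_IT. It also reversed for Adgre1 (-2.49), C1qa (-3.27), C1qc (-3.31), Clec7a (-2.20), Csf2rb (-0.91), C3 (-3.62) and C1s1 (-1.58) in PTX_IT, for Adgre1 in MIX_IT against NCTD_IT (3.56) and for C1qa in MIX_IT against PTX_IT (4.76). Since Xist separates the groups compared, such fits cannot part it from treatment, and no conclusion is drawn from these reversals. For the named genes of the other lists, 34 alternative fits gave an adjusted p below 0.05 where the main fit did not. In 71 such fits the reading stayed the same. These counts leave out the Xist covariate and the fits without 1 tumor. Cd14 in NCTD_IT ranged from -0.11 to 3.08 over fits without 1 tumor. With Csf1r in place of C1qc the log2 ratio of C1qb was 0.0935 in NCTD_IT and 0.0925 in PTX_IT, and with Cd68 it was 0.39 in NCTD_IT, 0.16 in PTX_IT and 0.13 in MIX_IT. No fold change of a macrophage gene printed with a standard error in the report reversed in an alternative other than the Xist covariate. A depth of 2861578 to 6702374 counts limits Chil3 most, which had fewer than 3 counts in 2 tumors.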
